A study of Mus musculus with 6 samples.

Results

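Carbonic anhydrases are zinc enzymes that turn carbon dioxide and water into bicarbonate and a proton, and back. In the colon, enzymes inside the surface epithelial cells supply bicarbonate and protons to apical chloride-bicarbonate and sodium-proton exchangers, through which salt and water are absorbed, while enzymes held at the cell membrane work on its outer side. The genes described here were chosen by name, as the rows of the deposited transcript table assigned to Car1, Car2, Car4, Car7, Car8, Car9, Car12, Car13 or Car14. They comprised 9 genes of 30419 in the table, with 34 transcripts of the 86818 that had values and a gene.

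RNA came from whole colons of 3 Tnfrsf1a-/- mice, labelled R1ko, and 3 WT mice. Tnfrsf1a encodes TNFR1, the main signalling receptor for tumour necrosis factor. All 6 animals were males of 12 weeks with the strain label C57Bl/6J, and no treatment was named for either group. The genotype is given as a plain knockout with no cell-type restriction, and neither the deleted part of the gene nor whether the WT mice were littermates is given in the sources used here. Polyadenylated RNA was sequenced, and levels are TPM, an abundance corrected for transcript length whose sum is equal in all libraries. Read depth per library is unknown.

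The full-length Tnfrsf1a transcript ENSMUST00000032491 had 23.5, 20.4 and 25.6 TPM in Tnfrsf1a-/- colons, against 67.6, 39.9 and 59.1 TPM in WT colons. It was lower in all 3 Tnfrsf1a-/- libraries, with a limma adjusted p of 0.197, and 0.0119 after median-of-ratios scaling. A shorter transcript, ENSMUST00000125880, had 18.0, 12.4 and 14.1 TPM in Tnfrsf1a-/- colons, against 1.202, 1.204 and 0.890 TPM in WT colons (limma adjusted p = 0.00124). Summed over the gene, Tnfrsf1a had 49.2, 36.5 and 46.9 TPM in Tnfrsf1a-/- colons, against 71.2, 44.1 and 63.0 TPM in WT colons. In TPM as deposited the groups overlapped, so that sum alone does not tell the genotypes apart. After median-of-ratios scaling the gene sums of the groups did not overlap. The scaled fold change was 0.739 with a limma adjusted p of 0.287, so the gene did not pass the test. The summed levels of 8 epithelial marker genes lay between 7784 and 8340 TPM in Tnfrsf1a-/- colons and between 5964 and 8585 TPM in WT colons. Those of 7 smooth muscle markers lay between 6130 and 7339 TPM in Tnfrsf1a-/- colons and between 5885 and 8437 TPM in WT colons, so both layers of the wall were present in every library. WT replicate 2 stood apart, since transcripts without a gene held 27.4% of its TPM against 1.86 to 7.23% in the other libraries. All TPM values of that library are lowered in proportion, and median-of-ratios scaling, which sets the typical gene equal between libraries, is given beside the results where it matters.

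No carbonic anhydrase gene passed the test for a difference between Tnfrsf1a-/- and WT colons, and the fold changes of the 3 abundant ones lay between 1.04 and 1.16. Of the 9 genes, 8 averaged at least 1 TPM in the 6 libraries and were tested. With limma on log2(TPM + 0.5) and Benjamini-Hochberg adjustment over all genes, 0 of the 8 passed an adjusted p of 0.05, and 0 had an unadjusted p under 0.05. Among all 14284 genes tested, 0.266% passed and 3.70% had an unadjusted p under 0.05. After median-of-ratios scaling, 0 of the 8 passed, as did 0.042% of all genes. The groups overlapped for each of the 8 genes, while 4.98% of all genes had groups that did not overlap. Fold changes of the members had 95% confidence intervals whose outermost bounds were 0.669 and 1.63. Those outermost bounds were of Car8 and Car14, and the intervals of Car1, Car2 and Car4 were narrower. With 3 against 3 mice, a change of a gene within its own interval was not excluded. A fold change on the log2(TPM + 0.5) scale understates the change of low genes. Since the samples were whole colons, fewer cells of a type and less RNA per cell cannot be told apart.

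The cytosolic enzymes Car1 and Car2 and the membrane-anchored enzyme Car4 were the abundant members. Together they made up 96.7 to 97.8% of the family's summed TPM in Tnfrsf1a-/- colons and 96.3 to 97.2% in WT colons. By mean level they ranked 118, 138 and 135 among all tested genes. The order of Car1, Car4 and Car2 was not stable, as Car1 exceeded Car4 in 4 of 6 libraries and Car4 exceeded Car2 in 4 of 6. Below them the order Car2, Car9, Car13, Car14, Car12, Car8, Car7 held in 6 of 6 libraries at each step. The steepest step was from Car2 to Car9, with a geometric mean ratio of TPM of 14.2. The smallest was from Car14 to Car12, with a ratio of 1.40.

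**Figure D1:**
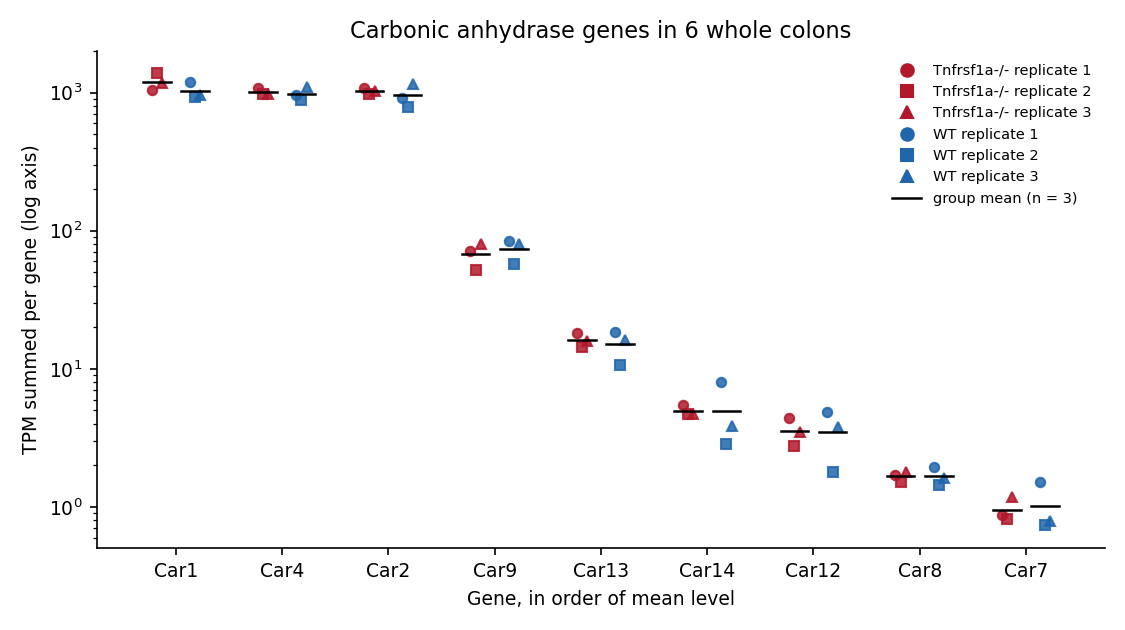
Level of each carbonic anhydrase gene (TPM summed per gene, log axis) in 3 Tnfrsf1a-/- and 3 WT colons. Points are libraries, bars are group means. Car1, Car4 and Car2 lie between 780.5 and 1379 TPM, Car9 lies between 51.6 and 83.6 TPM, and the groups overlap for all 9 genes.

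Car1 encodes a cytosolic enzyme abundant in colonocytes and in red blood cells. It had 1038, 1379 and 1165 TPM in Tnfrsf1a-/- colons, against 1199, 927 and 963 TPM in WT colons. The lowest Tnfrsf1a-/- library lay below the highest WT library. The group means were 1194 ± 172 TPM in Tnfrsf1a-/- colons and 1029.6 ± 148 TPM in WT colons (SD, n = 3 each). The fold change was 1.16 with a 95% interval of 0.882 to 1.52, and limma gave an adjusted p of 0.9999. Erythrocyte markers, 8 genes of which 4 were tested, summed to 104.0 to 200.9 TPM in Tnfrsf1a-/- colons and 96.3 to 156 TPM in WT colons. The library with the most erythrocyte marker TPM, Tnfrsf1a-/- replicate 3, was not the one with the most Car1, which was Tnfrsf1a-/- replicate 2. The part of red blood cells in the Car1 level was not tested.

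Car2, the cytosolic enzyme of high turnover, had 1079.9, 980.2 and 1035 TPM in Tnfrsf1a-/- colons, against 921, 780.5 and 1162 TPM in WT colons. The 3 Tnfrsf1a-/- values lay inside the WT range, whose lower end was WT replicate 2. Means were 1032 ± 49.9 TPM in Tnfrsf1a-/- colons and 954 ± 193 TPM in WT colons (SD, n = 3 each), a fold change of 1.09 with a 95% interval of 0.832 to 1.44 and a limma adjusted p of 0.9999. Car13 encodes another cytosolic member of lower abundance. It had 18.2, 14.3 and 15.9 TPM in Tnfrsf1a-/- colons, against 18.4, 10.6 and 16.1 TPM in WT colons. The Tnfrsf1a-/- libraries again lay inside the WT range, with WT replicate 2 at its lower end. The fold change of Car13 was 1.09 with a 95% interval of 0.784 to 1.51. After median-of-ratios scaling, a Tnfrsf1a-/- library lay above the WT range for Car2 and for Car13. Car7, a cytosolic enzyme best known from neurons, was near the limit of what was tested. It had 0.876, 0.822 and 1.18 TPM in Tnfrsf1a-/- colons, against 1.51, 0.738 and 0.789 TPM in WT colons, and its overall mean of 0.986 TPM fell short of the filter. A two-sided exact permutation test of its TPM gave p = 1, where 3 mice against 3 cannot go below 0.1.

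Car4, Car9, Car12 and Car14 act at the cell surface. Car4, which is tethered to the apical membrane of surface colonocytes by a lipid anchor, had 1081, 982 and 981 TPM in Tnfrsf1a-/- colons, against 968, 885 and 1093 TPM in WT colons. All 3 Tnfrsf1a-/- values fell within the WT range. In TPM as deposited, Car4 varied least of the 9 genes across the 6 libraries, with a highest over lowest value of 1.24. After median-of-ratios scaling it no longer varied least. The fold change of Car4 was 1.04 with a 95% interval of 0.796 to 1.35. Car9, a transmembrane enzyme known as a target of the hypoxia-inducible factors, was the one tested member with a fold change below 1. It had 71.2, 51.6 and 79.8 TPM in Tnfrsf1a-/- colons, against 83.6, 57.7 and 79.6 TPM in WT colons. Replicate 2 was the lowest library of each group in TPM as deposited, but after median-of-ratios scaling WT replicate 2 was not the lowest WT library. The fold change of Car9 was 0.915 with a 95% interval of 0.673 to 1.24, and after scaling it was 0.896 with an interval of 0.754 to 1.06 and a limma adjusted p of 0.572.

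Car12, a transmembrane enzyme of absorptive and secretory epithelia, had 4.43, 2.77 and 3.52 TPM in Tnfrsf1a-/- colons, against 4.90, 1.80 and 3.81 TPM in WT colons. Car14, another transmembrane member, had 5.47, 4.70 and 4.73 TPM in Tnfrsf1a-/- colons, against 8.10, 2.86 and 3.89 TPM in WT colons. In TPM as deposited, WT values enclosed the Tnfrsf1a-/- values for both genes, WT replicate 1 being the highest and WT replicate 2 the lowest. These were the 2 members with the widest spread over the libraries, with a highest over lowest value of 2.72 for Car12 and 2.84 for Car14. Their fold changes were 1.07 with a 95% interval of 0.701 to 1.62 for Car12 and 1.09 with an interval of 0.725 to 1.63 for Car14. In the annotation, the 3′ end of Car14 overlaps 521 bases of Aph1a on the opposite strand. Aph1a had 142 to 149 TPM in Tnfrsf1a-/- colons and 101.3 to 149.6 TPM in WT colons, and no source used here says whether strand was used, so the Car14 level is uncertain.

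Car8 encodes a carbonic anhydrase-related protein that lacks the enzyme activity and is best known from Purkinje cells. It had 1.71, 1.53 and 1.78 TPM in Tnfrsf1a-/- colons, against 1.96, 1.45 and 1.61 TPM in WT colons. The fold change was 1.003 with a 95% interval of 0.669 to 1.503, the interval that reached lowest among the members.

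**Figure D2:**
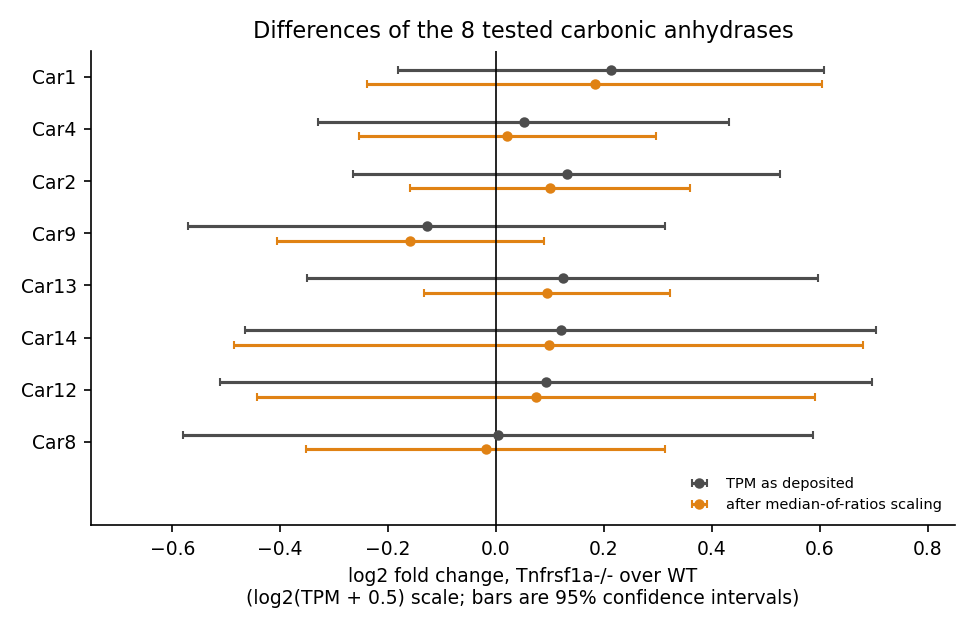
Log2 fold change (Tnfrsf1a-/- over WT) of the 8 tested carbonic anhydrases on the log2(TPM + 0.5) scale, from TPM as deposited (grey) and after median-of-ratios scaling (orange), with 95% confidence intervals. All intervals include 0, and the point estimates lie between −0.13 (Car9) and 0.21 (Car1) as deposited.

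In sum of TPM, the 9 genes reached 3301, 3416 and 3288 TPM in Tnfrsf1a-/- colons, against 3206, 2667 and 3323 TPM in WT colons. WT replicate 2 was the low value. As a share of the TPM that had a gene, the family held 0.339, 0.368 and 0.335% in Tnfrsf1a-/- colons and 0.334, 0.367 and 0.342% in WT colons, and on this measure the group means were close, at 0.347 ± 0.0182% in Tnfrsf1a-/- colons and 0.348 ± 0.0173% in WT colons (SD, n = 3 each). Rescaling to that share moved the median log2 fold change of all genes to −0.096. After median-of-ratios scaling the family's sum was 3305 ± 362 in Tnfrsf1a-/- colons and 3085 ± 284 in WT colons (SD, n = 3 each). Of the 8 tested members, 7 had a fold change above 1 and 1 below, none of them past the test, and the values of Car2, Car4, Car8, Car12 and Car13 turned below 1 under at least 1 other scaling of the libraries. Their median log2 fold change was 0.11, beside 0.03 over all genes tested. After scaling the median was 0.08 for the members and −0.0027 over all genes, with 6 members above 0 and 2 below.

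The ratios between members did not separate the groups either. The ratio of Car1 to Car2 TPM was 1.16 ± 0.225 in Tnfrsf1a-/- colons and 1.11 ± 0.247 in WT colons (SD, n = 3 each). It ranged from 0.962 to 1.41 in Tnfrsf1a-/- colons and from 0.829 to 1.30 in WT colons, so the spread within a group exceeded the gap between the groups. The ratio of Car2 to Car4 was steadier, at 1.02 ± 0.0327 in Tnfrsf1a-/- colons and 0.966 ± 0.0914 in WT colons. Car1, Car2 and Car13 lie together on chromosome 3 in the GENCODE M21 annotation of mm10, at chr3:14641727-14900770, a stretch of 259 kb that also holds Car3. Across it the mean levels of the members ran from 15.6 TPM for Car13 to 1112 TPM for Car1. The other members lie apart, with Car14 elsewhere on chromosome 3, Car8 and Car9 on chromosome 4, Car7 on chromosome 8, Car12 on chromosome 9 and Car4 on chromosome 11.

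A level of 1 TPM was reached in at least 1 library by 24 of the 34 transcripts of the 9 genes, and 22 had a mean high enough to be tested. With limma over all 31056 transcripts tested, 0 of the 22 passed an adjusted p of 0.05, against a background of 0.0419%, and 0 passed after scaling, against 0.0451%. An unadjusted p under 0.05 was seen for 1 of the 22 and for 5.02% of all transcripts. The groups did not overlap for the same transcript, 1 of 22, and for 8.19% of all transcripts, so neither count exceeded the background.

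That transcript was Car9 ENSMUST00000154251, singled out after its values were seen. It is a processed transcript without an annotated coding region, with 2 exons and 398 bases, at chr4:43512132-43512942 on the plus strand. It had 0.953, 0.979 and 1.10 TPM in Tnfrsf1a-/- colons, against 5.50, 2.88 and 3.57 TPM in WT colons. The Tnfrsf1a-/- libraries lay close together and below all WT libraries. The log2 fold change was −1.53 ± 0.30 (SE), a fold of 0.347 with a 95% interval of 0.217 to 0.554, with a limma p of 0.00048 and an adjusted p of 0.304. After scaling the adjusted p was 0.131, and over the 16 alternatives that tested it the value ranged from 0.131 to 0.429, so the difference did not pass the test in any of them. By p it ranked 48 of all transcripts tested, and 0.493% of them had a log2 fold change at least as low.

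As a share of Car9, ENSMUST00000154251 held 1.34, 1.90 and 1.38% in Tnfrsf1a-/- colons, against 6.58, 4.98 and 4.48% in WT colons. The groups did not overlap, and a two-sided exact permutation test of the share gave p = 0.1, the smallest that 3 mice against 3 allow. The transcript had been singled out by its TPM, and the Car9 sum differed little between the groups. The share therefore repeats that selection and is no separate support. The transcript keeps intron 8 of the full-length Car9 messenger RNA, 134 bases at chr4:43512278-43512411 that run from a GT to an AG. The reference sequence of this intron is shown because it is what mainly sets the scarce transcript apart from the full-length one. It is read 5′ to 3′ on the plus strand of GRCm38 (the build also called mm10) with the GENCODE M21 annotation, at chr4:43512258-43512431, with the intron in capitals and 20 bases of exon on each side in lower case.

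Car9 intron kept in ENSMUST00000154251: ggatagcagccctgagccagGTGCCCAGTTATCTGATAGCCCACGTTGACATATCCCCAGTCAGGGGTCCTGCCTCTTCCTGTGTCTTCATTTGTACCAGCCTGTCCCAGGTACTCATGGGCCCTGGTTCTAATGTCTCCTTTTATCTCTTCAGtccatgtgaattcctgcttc

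The single splice junction of ENSMUST00000154251 is shared with the full-length transcript ENSMUST00000030183, and 153 of its 398 bases lie outside that transcript. The kept intron is also present in ENSMUST00000129996, another processed Car9 transcript, and only 19 bases of ENSMUST00000154251 lie outside both. ENSMUST00000129996 had 3.98, 1.58 and 5.50 TPM in Tnfrsf1a-/- colons, against 3.50, 1.79 and 5.18 TPM in WT colons. Its groups overlapped, unlike those of ENSMUST00000154251, and how reads were divided between them was not tested. The full-length transcript had 30.6, 28.1 and 31.4 TPM in Tnfrsf1a-/- colons, against 34.9, 27.2 and 35.3 TPM in WT colons. It made up 45.6 ± 7.87% of Car9 in Tnfrsf1a-/- colons and 44.4 ± 2.72% in WT colons (SD, n = 3 each). The short processed transcripts ENSMUST00000128232 and ENSMUST00000126750 held 30.3% and 17.4% of the gene in the mean of Tnfrsf1a-/- colons, and 28.4% and 17.1% in that of WT colons. Protein-coding transcripts held 39.3 to 54.4% of the TPM of Car9 over the 6 libraries, the smallest coding part among the 9 genes. The antisense gene Gm12454, at chr4:43504428-43508747 on the minus strand, overlaps 1782 bases of Car9. The overlap includes the starts of the full-length ENSMUST00000030183 and of ENSMUST00000128232 and ENSMUST00000126750. Without knowledge of strand, the levels of these transcripts and the coding share of Car9 are uncertain. Gm12454 had no values to set beside them, and it does not reach ENSMUST00000154251.

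**Figure D3:**
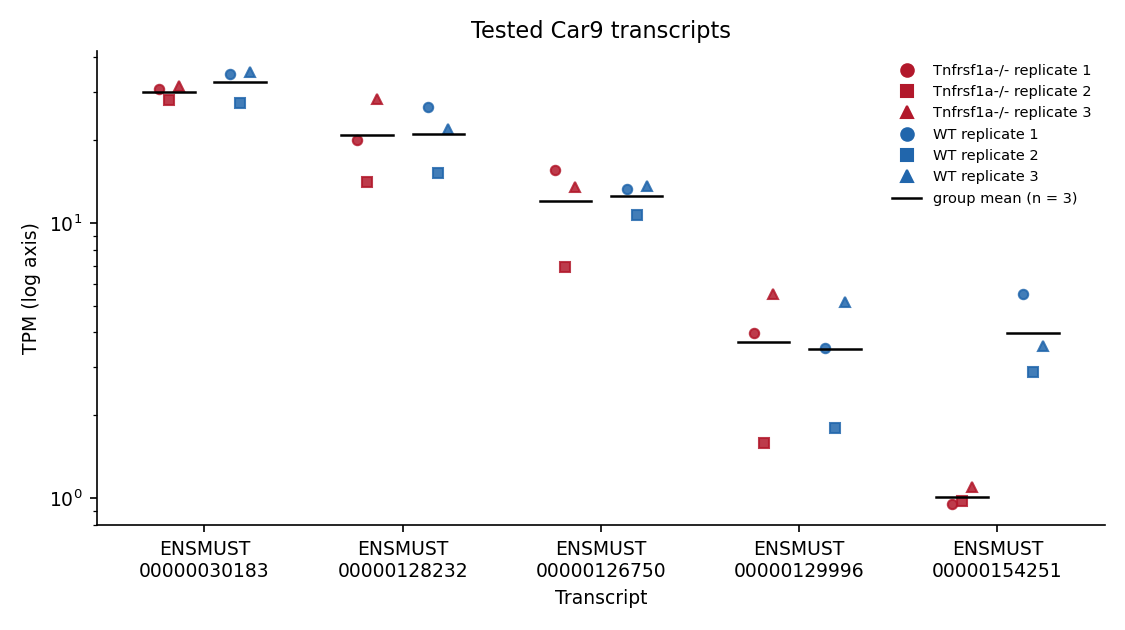
TPM (log axis) of the 5 tested Car9 transcripts in 3 Tnfrsf1a-/- and 3 WT colons. Points are libraries and bars are group means. ENSMUST00000154251 lies between 0.953 and 1.10 TPM in Tnfrsf1a-/- colons and between 2.88 and 5.50 TPM in WT colons, and the groups overlap for the other 4.

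Car4 was the other member with a large noncoding part, its protein-coding transcripts holding 68.7 to 78.8% of its TPM. The main coding transcript ENSMUST00000103194 had 742, 744 and 749.9 TPM in Tnfrsf1a-/- colons, against 762, 677 and 791 TPM in WT colons. Those values put its log2 fold change at 0.0072. ENSMUST00000150596, which the annotation classes under nonsense-mediated decay, had 189, 152 and 126 TPM in Tnfrsf1a-/- colons, against 62.1, 129 and 136 TPM in WT colons. The log2 fold change was 0.58 with a limma adjusted p of 0.996, and it was 0.21 without WT replicate 1, the one low library. Its share of Car4 was 15.3 ± 2.35% in Tnfrsf1a-/- colons and 11.2 ± 4.25% in WT colons (SD, n = 3 each; two-sided exact permutation p = 0.2).

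Car2 was carried by a pair of coding transcripts. The longer, ENSMUST00000029078, averaged 663 ± 9.47 TPM in Tnfrsf1a-/- colons and 629 ± 122 TPM in WT colons (SD, n = 3 each). The shorter, ENSMUST00000192609, had 398, 313 and 377 TPM in Tnfrsf1a-/- colons, against 220.0, 288 and 442 TPM in WT colons, and made up 35.1 ± 2.71% of Car2 in Tnfrsf1a-/- colons and 32.9 ± 7.83% in WT colons. In TPM as deposited, WT libraries spanned the Tnfrsf1a-/- ones for both transcripts. Car1 came almost wholly from ENSMUST00000094365, which held 99.8% of the gene in each group. Car8 and Car13 each had a single transcript with values, ENSMUST00000066674 and ENSMUST00000029071.

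The scarce surface enzymes were divided between coding transcripts. Car12 was split into ENSMUST00000071889 at 1.91 ± 0.898 TPM in Tnfrsf1a-/- colons and 1.84 ± 1.08 TPM in WT colons, and ENSMUST00000085420 at 1.501 ± 0.208 TPM in Tnfrsf1a-/- colons and 1.49 ± 1.07 TPM in WT colons (SD, n = 3 each). Car14 was split into ENSMUST00000036181 at 2.18 ± 0.451 TPM in Tnfrsf1a-/- colons and 2.09 ± 0.297 TPM in WT colons, and ENSMUST00000147962 at 2.19 ± 0.425 TPM in Tnfrsf1a-/- colons and 2.31 ± 1.88 TPM in WT colons. Car7 had its highest level in ENSMUST00000159416, at 0.525 ± 0.155 TPM in Tnfrsf1a-/- colons and 0.544 ± 0.252 TPM in WT colons, followed by ENSMUST00000056051 at 0.385 ± 0.123 TPM in Tnfrsf1a-/- colons and 0.347 ± 0.0794 TPM in WT colons. For each of these transcripts the gap between the groups was smaller than the SD in either group.

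Among 7 other genes of the family, 3 were tested and 0 passed limma's threshold. Car3, the muscle and fat isoform that lies between Car1 and Car2 on chromosome 3, was the variable one. It had 111, 233 and 174 TPM in Tnfrsf1a-/- colons, against 299, 19.1 and 66.1 TPM in WT colons. Its level varied 15.7-fold over the libraries, whereas its neighbours Car1 and Car2 each varied 1.49-fold. Skeletal muscle markers summed to 1150, 3068 and 1585 TPM in Tnfrsf1a-/- colons, against 3048, 188 and 644 TPM in WT colons, with WT replicate 2 lowest in both measures. Adipocyte markers summed to 289, 319.9 and 362 TPM in Tnfrsf1a-/- colons, against 226, 109.8 and 206 TPM in WT colons. The log2 fold change of Car3 was 1.18 with a limma adjusted p of 0.961, and the part of these tissues in it was not tested. Car5b and Car11 had means between 1.18 and 1.64 TPM in the groups, and Car5a, Car6, Car10 and Car15 were below the filter.

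The transporters that use bicarbonate and protons, and the other genes of the cells that make these enzymes, were taken as lists. Of 18 genes for bicarbonate and chloride transport, 12 were tested, 10 with a fold change above 1 and 2 below. Clca4b, of the calcium-activated chloride channel regulator family, was the 1 of 12 that passed, where 0.266% of all genes did, and after scaling 0 of 12 passed, where 0.042% of all genes did. It had 8.70, 4.04 and 7.43 TPM in Tnfrsf1a-/- colons, against 2.06, 2.85 and 2.28 TPM in WT colons, with a limma adjusted p of 0.0358, and 0.334 after scaling. Slc26a3, the apical chloride-bicarbonate exchanger, averaged 389 ± 76.1 TPM in Tnfrsf1a-/- colons and 322 ± 54.8 TPM in WT colons (SD, n = 3 each; limma adjusted p = 0.9999), and was chosen after its values were seen. Of 13 genes for proton transport and sodium-proton exchange, 10 were tested and 0 passed. Those with the smallest p were Slc9a3, the apical sodium-proton exchanger, at 6.89 ± 1.46 TPM in Tnfrsf1a-/- colons and 3.49 ± 1.23 TPM in WT colons (limma adjusted p = 0.252), and Atp12a, the colonic proton-potassium pump, at 156 ± 27.2 TPM in Tnfrsf1a-/- colons and 106 ± 23.1 TPM in WT colons (limma adjusted p = 0.726).

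All 17 hypoxia response genes, the group Car9 is usually counted with, were tested and 0 passed. Hk2 and Slc2a1, for a hexokinase and a glucose transporter, had the smallest p, with limma adjusted p-values of 0.9999 for both. The median log2 fold changes were 0.14 for bicarbonate and chloride transport, 0.25 for proton transport and 0.11 for the hypoxia genes. With TPM rescaled over transcripts with a gene, the hypoxia median was −0.019, beside −0.096 over all genes. Of 18 genes of surface colonocytes, where Car1 and Car4 are highest, 16 were tested with a median of 0.22 and 0 passed, Saa1 and Guca2a having the smallest p. For crypt base and cycling genes the median was 0.03 over 14 tested, and −0.00016 after scaling. The smallest p there were those of Ascl2 and Mki67, whose log2 fold changes of 0.36 and −0.28 had opposite signs. For homeobox and other genes of position along the colon the median was 0.0049 over 14 tested, and −0.03 after scaling, and the smallest p were those of Hoxb7 and Hoxb13, at −0.46 and 0.25. In either list 0 genes passed the threshold. These medians stand beside 0.03 over all genes, and a list's genes share cells and libraries, so no test is attached to them.

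For markers of cell types, the median log2 fold change was 1.37 for 10 skeletal muscle markers, led by Myh4 and Atp2a1, 1.02 for 9 adipocyte markers and 0.56 for 10 squamous epithelium markers, led by Lor and Krt13. Without WT replicate 2 and after scaling, these medians were 0.48, 0.78 and 0.17, and the squamous one then lay below the 0.24 of the proton transport list and the 0.23 of the surface colonocyte list. The 1 gene past the threshold among them was Cfd, an adipocyte factor, with a limma adjusted p of 0.00769, and 0.287 after scaling. The medians were 0.19 for 8 epithelial markers, led by Cdx2 and Cdx1, 0.06 for 4 tested erythrocyte markers, led by Hba-a2 and Hbb-bs, −0.08 for 7 smooth muscle markers, led by Actg2 and Myh11, and 0.08 for 9 markers of enteric neurons and glia, led by Uchl1 and Sox10. The epithelial median was close to the 0.21 of Car1 in all 6 libraries. Without WT replicate 2 and after scaling, the epithelial median was 0.16, beside 0.28 for Car1. The part of epithelial content in the Car1 value was not tested.

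**Figure D4:**
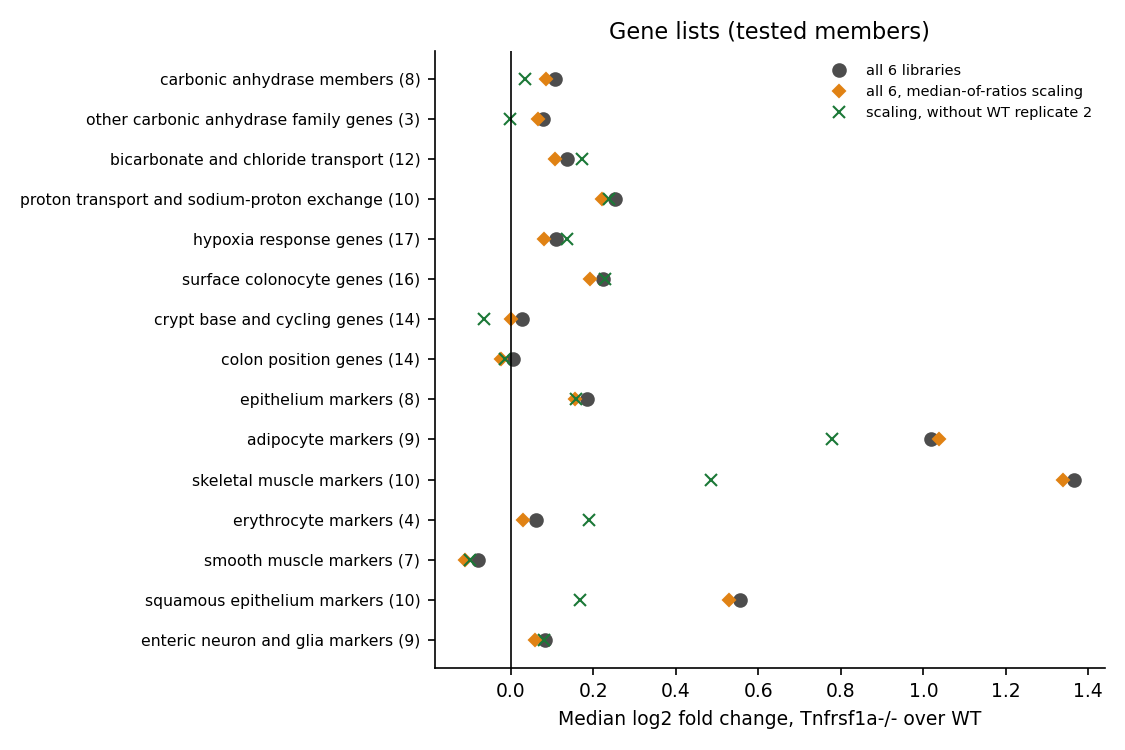
Median log2 fold change (Tnfrsf1a-/- over WT) of the tested genes of each list, with the number tested in brackets. Points show all 6 libraries, all 6 after median-of-ratios scaling, and scaling without WT replicate 2. The carbonic anhydrases lie at 0.11, 0.08 and 0.03, and the skeletal muscle and adipocyte markers lie farthest to the right in all 3 sets of points.

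The genes whose pattern over the 6 libraries was most like that of Car1, the most abundant member, were Gm3272 with a Pearson r of 0.998, Gm6565 with 0.988 and Mdp1, for a magnesium-dependent phosphatase, with 0.983, on scaled log2(TPM + 0.5). Gm3272 had a mean of only 1.43 TPM, near the filter of 1 TPM. The 6 libraries share few degrees of freedom, and 152 of 14283 genes had an r above 0.9.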

How the data were processed

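The authors deposited 1 table of TPM per transcript. Transcripts were quantified with kallisto 0.43.1 and tested with sleuth on build mm10, per the submitters' processing notes. Extraction used a PureLink kit and library construction a SMARTer low-input kit, per the labels' protocols. Of 132639 lines, 1433 repeated a transcript with equal values and were taken once. The 1380 transcripts without a gene were left out. TPM were summed per gene. Genes averaging at least 1 TPM were compared as log2(TPM + 0.5) with limma 3.58.1 in R 4.3.3 (lmFit, eBayes with a variance trend, Benjamini-Hochberg adjustment, threshold 0.05). Transcripts were treated alike, and the model was tested on simulated data. Members and gene lists were chosen with earlier results of these data known. All members were named, with each one's most abundant transcript and those holding at least 10% of the gene. Of each list, the genes past the threshold were named, or else the pair with the smallest p. The 17 alternatives varied the pseudocount, filter, scaling, variance model, replicate block and libraries. TPM carry no depth, so no counting interval is given. Coordinates are from GENCODE M21.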

Additional observations from a re-analysis of the deposited data

How the results depend on the processing

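In all 17 alternatives that were run, 0 carbonic anhydrase genes and 0 of their transcripts passed the limma threshold. Counts over all genes and transcripts were less stable. For genes (38 past the threshold, 13 higher and 25 lower), there were 2 with no filter, 142 with a filter at 5 TPM, 6 with median-of-ratios scaling (5 higher and 1 lower), 7 with quantile normalization (5 higher and 2 lower), 4 with TPM rescaled over transcripts with a gene (3 higher and 1 lower) and 83 with robust variance estimation. For transcripts (13 past the threshold), there were 7 with a pseudocount of 0.1, 1 with no filter and 23 with a filter at 5 TPM. Leaving out 1 library gave 20 to 298 genes (20 without WT replicate 2, 298 without WT replicate 1) and 1 to 61 transcripts (1 without WT replicate 2, 61 without Tnfrsf1a-/- replicate 1). Scaling without WT replicate 2, chosen after seeing the data, gave 21 genes and 3 transcripts. The log2 ratio of the family's summed TPM was 0.12, −0.0014 with rescaling and 0.03 without WT replicate 2. Beside these, the median log2 fold change of all genes was 0.03, −0.096 and −0.13. The cause of these differences was not tested.

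The replicate number as a block gave 71 genes, 1 transcript and 0 members. Correlations of same-numbered deviations were 0.0521, 0.132 and 0.184. No label says that a number is a shared litter or day, so the main fit had no block. Whether same-numbered libraries share more than a number was not tested. Of the 6 libraries, 5 correlated best with their own number, and Tnfrsf1a-/- replicate 1 correlated best with WT replicate 3. Deviations were taken from each group's own mean, so these correlations depend on each other and the count is no test of pairing.

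Signs of small log2 fold changes turned under some settings, none of them past the threshold. With quantile normalization the values were −0.049 for Car2, −0.11 for Car4, −0.054 for ENSMUST00000029078 and −0.16 for ENSMUST00000103194. With scaling they were −0.019 for Car8 and −0.023 for ENSMUST00000103194. With rescaling, which moved the median of all genes to −0.10 and of all transcripts to −0.12, they were −0.078 for Car4, −0.10 for Car8, −0.012 for Car12, −0.00094 for Car13, −0.035 for ENSMUST00000029078, −0.12 for ENSMUST00000103194 and −0.061 for ENSMUST00000036181. With scaling and without WT replicate 2 they were −0.14 for Car12, −0.044 for Car14, −0.23 for ENSMUST00000071889 and −0.21 for ENSMUST00000147962. In that setting Car2, Car4, Car8 and Car13 stayed above 0, at 0.13, 0.12, 0.036 and 0.034. Leaving out 1 library gave −0.0045 to 0.28 for Car2, −0.021 to 0.13 for Car4, −0.071 to 0.097 for Car8, −0.29 to 0.052 for Car9, −0.26 to 0.35 for Car12, −0.10 to 0.28 for Car13 and −0.17 to 0.51 for Car14. For transcripts, leaving out 1 library gave −0.078 to 0.19 for ENSMUST00000029078, −0.058 to 0.053 for ENSMUST00000103194, −0.34 to 0.22 for ENSMUST00000126750, −0.29 to 0.20 for ENSMUST00000128232, −0.34 to 0.44 for ENSMUST00000071889, −0.15 to 0.54 for ENSMUST00000085420, −0.085 to 0.15 for ENSMUST00000036181 and −0.32 to 0.66 for ENSMUST00000147962. Car1 kept its sign in all 17 alternatives. ENSMUST00000154251 kept its sign in the 16 that tested it, with log2 fold changes of −1.83 to −1.28. Depth is unknown, so the precision of values near 1 TPM cannot be given.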
